A study of Danio rerio with 20 samples.

Results

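The comparison set zebrafish larvae exposed to the October extract of a treated wastewater against the control larvae of the same campaign, across all genes of the count table. The samples are the 10 libraries titled for the OCT20 campaign, of 20 libraries in the series, and were chosen by those titles alone. SEC OCT20 comprises 5 pools of wild-type zebrafish (Danio rerio) larvae that spent the day before collection in secondary effluent extract at the strength labelled 20x. CTRL OCT20 comprises 5 pools of wild-type control larvae of the same age. Every pool held 10 whole larvae, exposed at 4 and collected at 5 days post fertilisation, and gave 1 stranded mRNA library. The labels do not say if the controls received the extract's solvent, at which hour larvae were collected, or if the pools of a group were separate spawns. The p-values therefore measure the spread between pools only. The labels name no transgene or mutation in either group.

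Secondary effluent is sewage after biological treatment, and an extract of it concentrates the organic compounds that treatment leaves behind. Fish larvae meet such mixtures with ligand-activated transcription factors: the aryl hydrocarbon receptor for planar aromatic compounds, the pregnane X receptor for many drugs and steroids, Nrf2 for electrophiles, and nuclear receptors for hormones. Their targets encode enzymes that oxidise a compound, enzymes that conjugate it to a sugar, sulfate or glutathione, and pumps that carry the product out of the cell.

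The October libraries held 32745188 to 45439387 counts in SEC and 28832858 to 40168174 counts in CTRL (exact two-sided permutation p = 0.190, where 0.00794 is the smallest value 5 against 5 allows). The 10 most abundant genes took 14.0% ± 0.181 of the counts in SEC and 13.2% ± 0.642 in CTRL (SD, n = 5 each; exact permutation p = 0.0317), and mitochondrial ribosomal RNA took 3.16% ± 0.155 and 2.76% ± 0.447 (exact permutation p = 0.111). Defining transcripts of a whole larva were present in both groups, among them elavl3 of neurons (477 CPM in SEC and 485 CPM in CTRL), ckma of muscle (3146 and 3293), prss1 of exocrine pancreas (1467 and 1370.1) and fabp10a of liver (325 and 268). CPM are counts-per-million values, scaled for library size and composition. The pools of both groups divided into 2 sides, a division known from earlier work on these files: SEC replicates 4 and 5 and CTRL replicates 1, 3 and 5 had 16 to 29 counts of the uncharacterised gene si:dkey-269o24.1, and the other 5 pools had 106 to 204. SEC held 2 pools of the low side and CTRL held 3, and counts that differed between the sides are also given within them for many of the lists. Each side has only 2 or 3 pools per group, so a call lost within a side does not by itself mean a smaller effect there. In whole larvae, fewer cells of a type and less RNA per cell cannot be told apart.

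Of 22512 genes with enough counts for a test, 2763 changed with the October extract, 12.3% of those tested. They comprised 1618 genes that rose (7.19%) and 1145 that fell (5.09%), called at a Benjamini-Hochberg adjusted p under 0.05 in edgeR's quasi-likelihood test, as are all calls and adjusted p-values here. Most changes were small: the median size among called genes was 0.442 on the log2 scale, 227 genes rose and 106 fell at least 2-fold, and 31 rose and 8 fell at least 4-fold. For 6.66% of tested genes all 5 SEC pools lay above all 5 CTRL pools, and for 4.73% all lay below. The count of genes that fell was 729 without SEC replicate 2, 731 without SEC replicate 5 and 740.0 without CTRL replicate 3. Within the low side 1331 genes rose and 744 fell, and within the high side 2298 rose and 2157 fell. The sides were set by counts of a gene in these same libraries. Counts of genes between, within or adjusted for the sides are therefore descriptive only. In a fit with the side as a term, 2117 genes were higher and 2348 lower on the low side than on the high side. That fit called 2456 genes higher and 2161 lower with the extract. Log2 fold changes are SEC minus CTRL with their standard error, and the shares of a gene list that rose or fell stand against the 7.19% and 5.09% of all tested genes; the 72 lists hold 2277 tested genes.

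Genes of the aryl hydrocarbon receptor pathway were among the strongest increases in the October larvae. Of 18 tested members of this list 12 rose (66.7%) and 2 fell, with a median log2 change of 0.62 against -0.01 over all tested genes. Expression of cyp1a (ENSDARG00000098315), the monooxygenase used as the standard marker of this receptor, was 510.3, 516, 448, 448 and 484 CPM in SEC pools, against 31.6, 31.7, 29.8, 28.4 and 34.2 CPM in CTRL pools. The groups stood far apart, with a fitted fold change of 15.4 and a log2 change of 3.95 ± 0.07 (edgeR adjusted p = 7.24e-12). Its relative cyp1c1 (ENSDARG00000101195) had 93.7, 104, 114, 105 and 109.9 CPM in SEC pools, against 14.9, 16.3, 15.02, 16.2 and 15.1 CPM in CTRL pools. That is 2.76 ± 0.06 on the log2 scale (adjusted p = 4.96e-11), and the lowest SEC pool was several times the highest CTRL pool. For cyp1b1 (ENSDARG00000068934) the pools read 25.7, 29.5, 34.7, 29.5 and 34.6 CPM in SEC pools, against 4.96, 4.04, 5.16, 4.87 and 4.14 CPM in CTRL pools. It too separated without overlap (2.73 ± 0.10), whereas cyp1c2 rose less (1.48 ± 0.14, adjusted p = 2.18e-05) and the fifth enzyme of the family, cyp1d1, stood at 0.02 ± 0.09 and was not called (adjusted p = 0.917; named after its value was seen).

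The regulators of the same pathway followed. The repressor gene ahrra (ENSDARG00000099702), whose product competes with the receptor for its partner, had 11.4, 11.6, 8.89, 11.6 and 11.9 CPM in SEC pools, against 0.529, 0.513, 0.485, 0.398 and 0.849 CPM in CTRL pools. SEC replicate 3 was the lowest exposed pool and still more than 10 times the highest control, and the change was 4.28 ± 0.16 (adjusted p = 1.19e-08). The forkhead factor gene foxq1a had 29.1, 28.3, 26.7, 29.2 and 24.9 CPM in SEC pools, against 7.77, 6.71, 8.20, 6.83 and 6.22 CPM in CTRL pools. All SEC pools were above all CTRL pools (1.95 ± 0.08, adjusted p = 2.42e-08). Further members, named after their values were seen, include the receptors themselves: ahr2, the main receptor of zebrafish, rose (0.60 ± 0.04) and ahr1b fell (-0.45 ± 0.07). The second repressor ahrrb (0.64 ± 0.16), the quinone reductase nqo1 (0.68 ± 0.11), foxq1b (0.91 ± 0.09) and tiparp, an enzyme that dampens the receptor (0.30 ± 0.06), rose. The cartilage and heart regulator sox9b, which aryl hydrocarbon receptor agonists repress in zebrafish, fell (-0.61 ± 0.10). Summed over the list, the pools held 1231 to 1310 CPM in SEC and 553 to 599 CPM in CTRL.

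**Figure D1:**
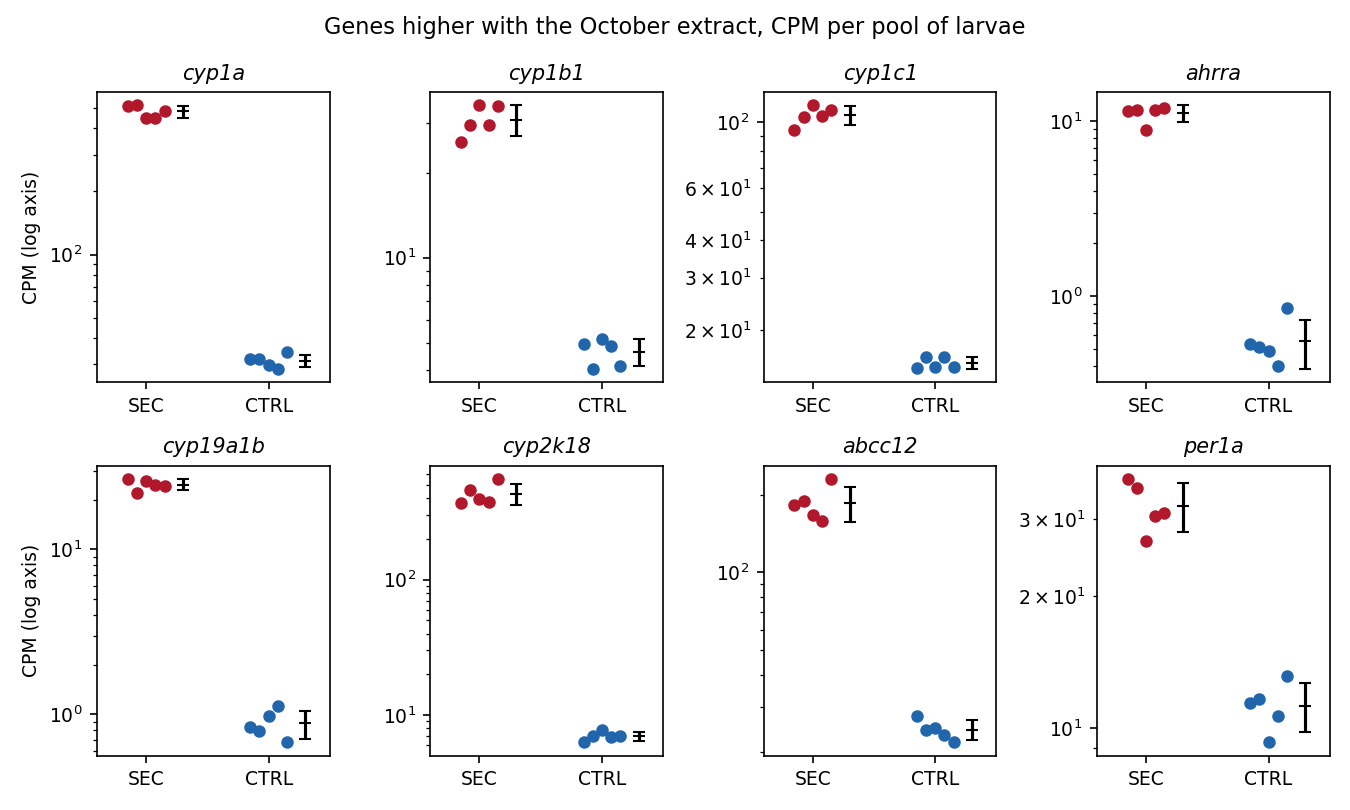
CPM (log axis) of 8 genes that rose with the October extract, with 1 point per pool, SEC left and CTRL right, and the mean with its SD beside the points (n = 5 each). The groups do not overlap in any panel; cyp1a lies between 448 and 516 CPM in SEC and between 28.4 and 34.2 CPM in CTRL.

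Other cytochromes P450 rose as well. Among called genes of at least 1 CPM and with a symbol other than a clone name, the largest fold change was in this family. Of 46 tested family 2 and 3 genes and their reductases 21 rose (45.7%) and none fell, with a median of 0.48. The gene cyp2k18 (ENSDARG00000104593), of a fish subfamily, had 371, 463, 396, 375 and 557 CPM in SEC pools, against 6.27, 7.01, 7.75, 6.90 and 6.96 CPM in CTRL pools. The fitted fold change was 62.1 (5.96 ± 0.13, adjusted p = 4.96e-11), with no pool of either group near the other. For cyp2x12 the values were 41.3, 70.9, 50.1, 61.7 and 65.6 CPM in SEC pools, against 6.74, 2.74, 3.91, 1.06 and 5.97 CPM in CTRL pools. The CTRL pools spread widely and all lay far below SEC (3.79 ± 0.33, and 4.84 within the high side). The symbol cyp2y3 belongs to 2 genes between which reads could be split: ENSDARG00000068493 stood at 4.71 ± 0.30 and ENSDARG00000101423, named after its values were seen, at 2.17 ± 0.18, so both values are uncertain. Expression of cyp3a65, the abundant family 3 enzyme of larval liver and gut, was 2203, 2232, 1937, 1782 and 1733 CPM in SEC pools, against 995, 812, 826, 762 and 941 CPM in CTRL pools. It rose by 1.19 ± 0.09 with no overlap. The gene porb, for the reductase that hands electrons to these enzymes, had 451, 455, 417, 403 and 448 CPM in SEC pools, against 165, 173, 161, 171 and 156 CPM in CTRL pools. Its change was 1.397 ± 0.05 (adjusted p = 6.53e-09). The pregnane X receptor gene nr1i2, a regulator of this family, rose more modestly (32.4 CPM in SEC and 19.5 in CTRL, 0.73 ± 0.08; named after its values were seen).

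Of the enzymes that conjugate a sugar or a sulfate, those of the glucuronide side rose more often. Of 26 tested UDP-glucuronosyltransferases 16 rose (61.5%) and 1 fell (3.85%), with a median of 0.87. The gene ugt1a1, named for the enzyme that conjugates bilirubin in mammals, had 339.9, 326, 287, 238 and 318 CPM in SEC pools, against 87.4, 139, 94.9, 127 and 77.7 CPM in CTRL pools. The groups did not overlap (1.52 ± 0.16, adjusted p = 4.8e-05). Transcripts of ugt5a1 averaged 16.7 ± 2.81 CPM in SEC and 4.93 ± 1.496 CPM in CTRL (1.78 ± 0.19), and ugt2a4 was at 1.39 ± 0.14. These transferases share exons or near-identical copies in fish genomes, and the symbol ugt2a7 is held by 3 genes of the table, so single members are uncertain. Sulfotransferases did not move one way: of 19 tested 3 rose and 3 fell. There sult6b1 rose to 138 CPM in SEC, against 59.9 CPM in CTRL (1.199 ± 0.08). In contrast sult1st2, whose product sulfates phenols, had 9.62, 7.61, 6.50, 5.45 and 5.75 CPM in SEC pools, against 12.8, 22.6, 16.7, 23.2 and 11.8 CPM in CTRL pools. It fell in every SEC pool below every CTRL pool (-1.32 ± 0.21, adjusted p = 0.00156). The count of risen sulfotransferases was 5 without CTRL replicate 2 and 5 within the high side. Among risen genes with at least 1 CPM and no clone name, the thiopurine methyltransferase gene tpmt.1 was in the 15 of smallest p. It averaged 29.3 ± 1.33 CPM in SEC and 11.13 ± 0.931 CPM in CTRL (1.397 ± 0.07).

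Exporters of conjugates rose in the same larvae. Of 46 tested ABC transporters 15 rose (32.6%) and 2 fell (4.35%), with a median of 0.11. The gene abcc12 (ENSDARG00000013050), of the multidrug resistance protein subfamily, had 183, 189, 167, 158 and 231 CPM in SEC pools, against 27.8, 24.4, 24.9, 23.4 and 21.8 CPM in CTRL pools. The fitted fold change was 7.59 (2.92 ± 0.10, adjusted p = 6.53e-09). The gene abcc2, for the pump that moves glucuronide and glutathione conjugates into bile and urine, had 502, 511, 437, 454 and 481 CPM in SEC pools, against 173, 143, 156, 135 and 153 CPM in CTRL pools. It rose by 1.65 ± 0.07 with a gap between the groups. The efflux pump gene abcb5 rose (0.90 ± 0.06), and abcb11a, of the bile salt export pump family, had 31.5, 36.1, 26.2, 35.03 and 42.4 CPM in SEC pools, against 10.11, 10.9, 11.7, 11.14 and 7.29 CPM in CTRL pools. Its lowest SEC pool was more than 2 times the highest CTRL pool (1.75 ± 0.14). Among the uptake carriers for organic ions 8 of 25 rose and 3 fell, or 1 fell within the low side, led by slc22a18 (63.6 CPM in SEC and 28.2 CPM in CTRL, 1.18 ± 0.09), with slco1d1 at 0.84 ± 0.07, slc22a6l at 0.89 ± 0.08 and slco2b1 lower at -0.58 ± 0.05.

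Genes of the Nrf2 and glutathione list rose in 22 of 31 tested members (71.0%), 1 fell (3.23%), and the median was 0.86. The gene gclc, for the catalytic subunit of the committed step of glutathione synthesis, averaged 84.01 ± 5.08 CPM in SEC and 45.9 ± 1.56 CPM in CTRL (0.87 ± 0.05). Of the transferases that use glutathione, gstp2 had 92.7, 71.5, 81.3, 56.3 and 61.9 CPM in SEC pools, against 8.02, 17.4, 9.31, 13.2 and 6.81 CPM in CTRL pools. CTRL replicates 2 and 4 were the highest controls and still well under SEC (2.74 ± 0.23, adjusted p = 1.11e-05). The peroxidase gene prdx1 had 73.7, 68.00, 63.3, 97.2 and 95.2 CPM in SEC pools, against 20.2, 22.1, 24.4, 21.3 and 17.5 CPM in CTRL pools. It rose by 1.91 ± 0.13, with the highest values in SEC replicates 4 and 5. The genes of the regulator itself, nfe2l2a (0.86 ± 0.05) and nfe2l2b (2.28 ± 0.14), and of its inhibitor keap1a (0.77 ± 0.11) rose too; these 3 were named after their values were seen. The member that fell was hmox1a (ENSDARG00000027529), for the enzyme that splits haem into iron, carbon monoxide and biliverdin, with 5.61, 4.07, 3.73, 4.74 and 3.41 CPM in SEC pools, against 26.4, 12.7, 23.5, 13.8 and 24.4 CPM in CTRL pools. The highest SEC pool lay under the lowest CTRL pool (-2.24 ± 0.22, adjusted p = 3.89e-05). The change was -2.62 within the low side, where controls were highest, and -1.56 within the high side.

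Of 18 tested genes of haem synthesis and breakdown 6 rose (33.3%) and 1 fell (5.56%), hmox1a, with a median of 0.31, and 4 fell within the high side. The gene alas1, for the first and rate-limiting enzyme of haem synthesis outside red cells, had 955, 969, 824, 679.5 and 669 CPM in SEC pools, against 303, 366, 363, 302 and 264 CPM in CTRL pools. The groups were apart by 1.36 ± 0.12 (adjusted p = 1.91e-05). The gene hebp2, named as a haem-binding protein, had 135, 145, 136, 160.4 and 148 CPM in SEC pools, against 35.6, 37.8, 38.5, 32.3 and 35.4 CPM in CTRL pools. Its log2 change was 2.01 ± 0.06 (adjusted p = 2.06e-09). The mitochondrial translocator gene tspo rose to 81.9 CPM, against 34.9 CPM in CTRL (1.23 ± 0.06). Downstream of haem oxygenase, the biliverdin reductase gene blvra rose while hmox1a fell (1.32 ± 0.07). In the iron and metal list 6 of 23 rose (26.1%) and 1 fell (4.35%). The metallothionein gene mt2, an indicator of metals, rose (0.61 ± 0.12, adjusted p = 0.00497). Ferritin genes went both ways: fth1b fell (-0.34 ± 0.05), while the ferritin-like genes fthl27, fthl28 and fthl31 rose. With single libraries left out their lowest log2 changes were 0.66, 0.54 and 0.61 (edgeR adjusted p up to 0.022). The globin and red cell list had 3 of 21 members higher (14.3%), hbae3 (0.64 ± 0.13), hbbe1.1 (0.78 ± 0.18) and the erythroid factor gata1a (1.01 ± 0.22); it had 6 without CTRL replicate 2 and 8 within the low side, and 3 fell within the high side. Globin genes lie in tandem copies and their single values are uncertain. The call of gata1a was lost within the high side (adjusted p = 0.063) and that of hbbe1.1 within the low side (adjusted p = 0.0506).

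In the estrogen list a single tested gene had a large change. Brain aromatase, cyp19a1b (ENSDARG00000098360), the enzyme of radial glia that converts androgens to estrogens and a direct estrogen target in fish, had 26.8, 21.9, 25.9, 24.6 and 24.2 CPM in SEC pools, against 0.835, 0.787, 0.969, 1.13 and 0.674 CPM in CTRL pools. The groups stood far apart, with a fitted fold change of 28.3 (4.82 ± 0.11, adjusted p = 6.87e-11). Of 9 tested members of the estrogen list 2 rose, cyp19a1b and the receptor gene esr2b, which was at 4.97 CPM in SEC and 3.77 CPM in CTRL (0.40 ± 0.09, adjusted p = 0.014). The log2 change of esr2b was 0.36 within the low side, where its call was lost (adjusted p = 0.16). A further 8 members had too few counts for a test. The egg yolk precursor gene vtg1, the usual liver marker of estrogens, had 2, 8, 2, 5 and 1 counts in SEC pools, against 4, 10, 6, 3 and 11 counts in CTRL pools, a level at which no change could be detected. The receptor gene esr1 was at 0.40 ± 0.20 and was not called (adjusted p = 0.253).

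Hormone genes outside the estrogen list changed in part. Prolactin, prl, a pituitary hormone of salt and water balance in fish, had 2.52, 2.53, 2.67, 5.42 and 3.26 CPM in SEC pools, against 1.48, 1.06, 1.94, 1.09 and 0.849 CPM in CTRL pools. SEC replicate 4 was the highest and the groups did not overlap (1.36 ± 0.27, adjusted p = 0.00572). It was 1 of 3 members higher among 22 pituitary and hypothalamic genes. The pituitary gene cga also rose (0.62 ± 0.14, adjusted p = 0.0143). It was at 0.73 within the low side, where the call was lost (adjusted p = 0.0563). The peptide gene gnrh2 rose but lost its call with single libraries left out (adjusted p up to 0.117). The pituitary gene lhb, named after its counts were seen, had too few for a test. It had 10, 35, 30, 18 and 24 counts in SEC pools, against 6, 3, 3, 7 and 8 counts in CTRL pools. Calcium hormones included stc1l, of the calcium-lowering stanniocalcins (0.89 ± 0.14), and pth1b, a parathyroid hormone gene (1.08 ± 0.22), which rose, and the calcium channel gene trpv6, which fell (-0.50 ± 0.10); 3 of 15 in this list rose and 2 fell. The calls of pth1b (adjusted p = 0.0595) and trpv6 (adjusted p = 0.14) were lost within the low side. Of 24 glucocorticoid-responsive genes 7 rose (29.2%) and none fell, and 13 rose within the high side. The risen include per1a, which the clock list also holds. The marker of this hormone, fkbp5, was at 0.34 ± 0.24 and was not called (adjusted p = 0.42), and the list's median was 0.07 within the low side and 0.74 within the high side. The thyroid list had 1 of 13 members higher and 1 lower (7.69% each), tg (0.40 ± 0.11) and thrb (-0.21 ± 0.05). The call of tg was lost without SEC replicate 2, 4 or 5 or CTRL replicate 2, 3, 4 or 5 (adjusted p up to 0.1), and that of thrb without SEC replicate 2, 3, 4 or 5 or CTRL replicate 1 or 3 (up to 0.0725).

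Genes that zebrafish tissues switch on in light rose in the October larvae. Zebrafish organs keep their own clocks and respond to light directly, so photolyases, DNA repair sensors and some period and cryptochrome genes follow illumination and time of day throughout the body. Of 13 tested light-inducible repair genes and cryptochromes 10 rose (76.9%) and none fell, with a median of 0.84, and the count was 10 under each alternative run. The photolyase gene cry5 (ENSDARG00000019498) had 55.5, 55.5, 52.6, 65.1 and 58.9 CPM in SEC pools, against 17.8, 18.2, 16.4, 15.7 and 18.4 CPM in CTRL pools. Each SEC pool was near 3 times the controls (1.73 ± 0.07, adjusted p = 1.47e-08). The damage sensor gene xpc of nucleotide excision repair had 53.8, 56.5, 55.4, 66.2 and 57.4 CPM in SEC pools, against 23.6, 20.9, 23.6, 20.1 and 24.06 CPM in CTRL pools. It rose by 1.36 ± 0.07, with SEC replicate 4 highest. The gene cry-dash was at 1.31 ± 0.09, and tefa, which drives light-induced transcription, had 268.9, 259.5, 247, 264 and 254 CPM in SEC pools, against 117, 139, 119, 116 and 122 CPM in CTRL pools. Its change was 1.08 ± 0.06 (adjusted p = 1.45e-07).

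The clock list moved both ways: of 36 tested genes 15 rose (41.7%) and 9 fell. The period gene per1a (ENSDARG00000056885) had 37.1, 35.4, 26.8, 30.5 and 31.1 CPM in SEC pools, against 11.4, 11.6, 9.28, 10.6 and 13.2 CPM in CTRL pools. All SEC pools lay above all CTRL pools (1.51 ± 0.10, adjusted p = 1.86e-06). For per2, a light-induced period gene, the change was 0.97 ± 0.06, and for ciarta, a repressor of the clock's activators, 0.99 ± 0.07. The nuclear receptor gene nr1d1, a repressor of activator genes and named after its values were seen, had 95.1, 97.9, 83.96, 80.98 and 81.9 CPM in SEC pools, against 21.2, 24.3, 16.7, 17.7 and 32 CPM in CTRL pools. It was at 1.97 ± 0.15. On the lower side, also named after their values were seen, were the activator gene arntl1a (-0.51 ± 0.06), rorcb of a receptor family that activates it (-0.98 ± 0.19), the repressor gene nfil3-5 (-1.08 ± 0.16) and aanat2 of the melatonin rhythm in the pineal organ (-1.18 ± 0.21). The direction of a clock gene depends on the hour, and the labels do not give it for either group.

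**Figure D2:**
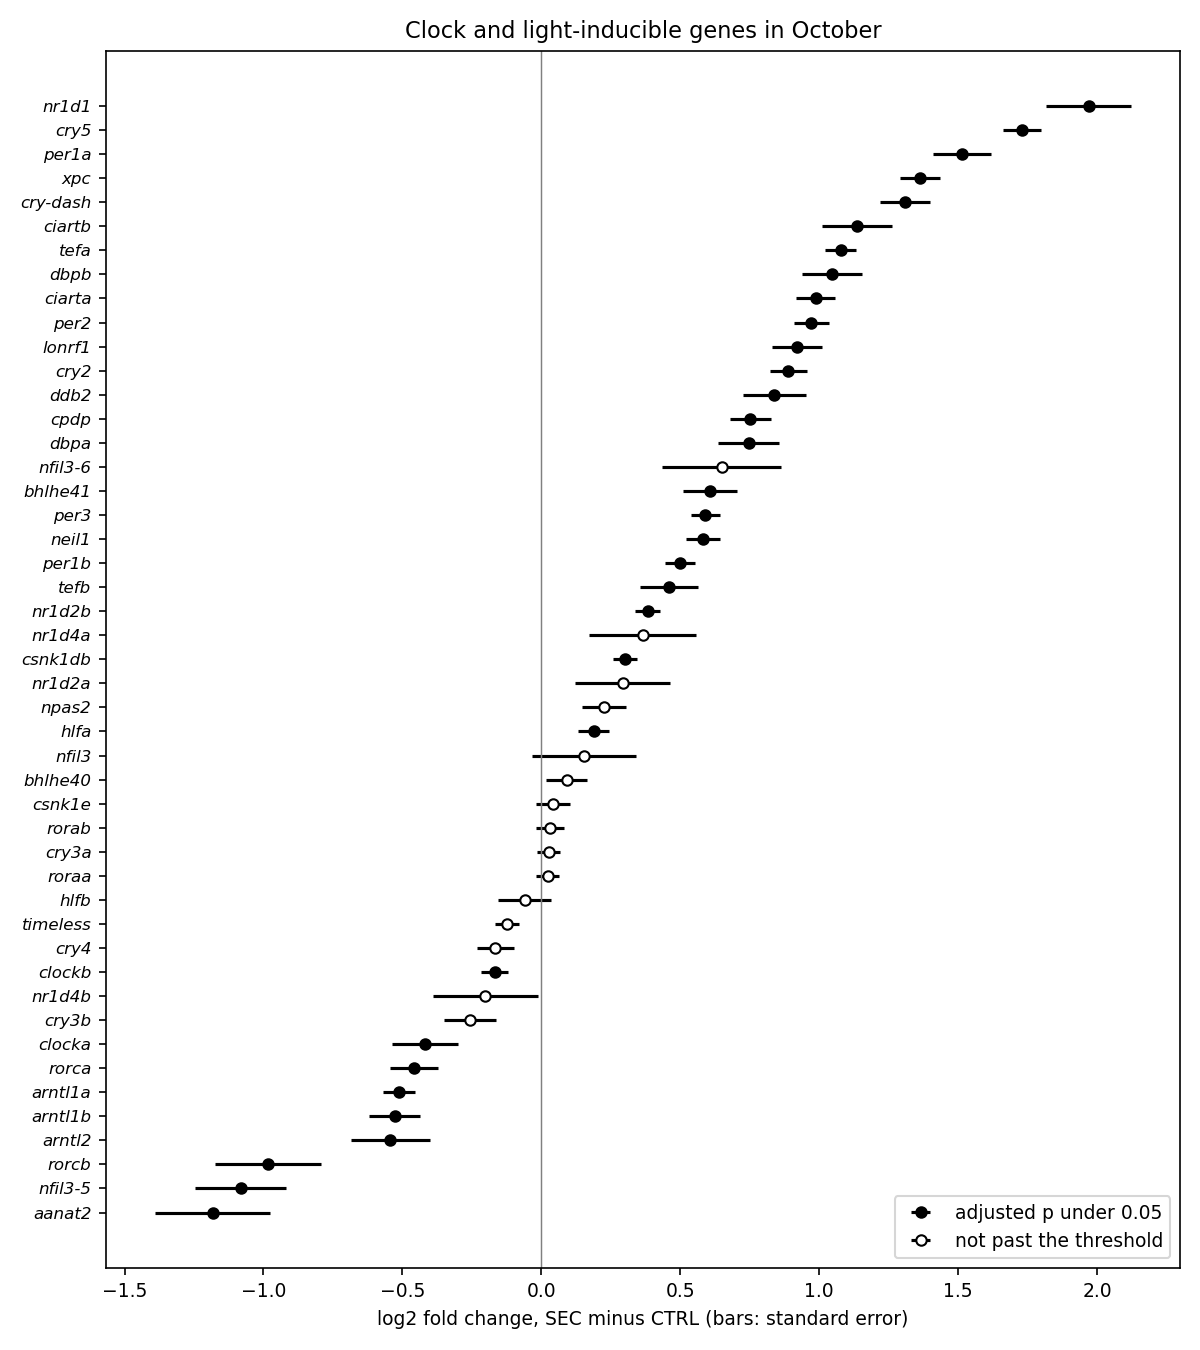
Log2 fold change, SEC minus CTRL, with standard error, of the clock and light-inducible genes, filled where the adjusted p is under 0.05. The photolyase, repair and period genes lie to the right of 0, nr1d1 highest at 1.97, and arntl1a, clocka and aanat2 lie to the left, while cry3b and cry4 stand left of 0 without passing the threshold.

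Many skin genes fell. Of 24 tested keratins 11 fell (45.8%) and 2 rose (8.33%), or 5 rose within the high side, with a median of -0.20, and of 17 desmosome and skin adhesion genes 8 fell (47.1%) and none rose, with a median of -0.25. The most abundant tested keratin was krt4 of the surface layer, named after its values were seen, with 3503, 3674, 4046, 2850.5 and 2539 CPM in SEC pools, against 5592, 7213, 5809, 7119 and 5535 CPM in CTRL pools. The groups did not overlap (-0.91 ± 0.13, adjusted p = 0.000465). The type I cytokeratin gene cyt1l had 387, 343, 381, 334 and 307 CPM in SEC pools, against 688, 692, 859, 895 and 834 CPM in CTRL pools. By the fit it was 2.27-fold lower in SEC (-1.18 ± 0.09, adjusted p = 4.34e-06). The gene krt15 had 177, 168, 170.3, 170.1 and 143 CPM in SEC pools, against 363, 305, 309.6, 281 and 329 CPM in CTRL pools. SEC replicate 5 was the lowest of all (-0.94 ± 0.07). Values for krt17 and krt18a.2 were -0.91 ± 0.07 and -1.18 ± 0.09. Of the desmosome, the junction that rivets skin cells together, pkp1b had 8.33, 8.44, 9.27, 7.61 and 7.87 CPM in SEC pools, against 17.5, 15.6, 15.8, 14.4 and 16.9 CPM in CTRL pools. It fell by about the size of the keratins (-0.95 ± 0.07), and the desmoplakin genes dspb (-0.59 ± 0.08) and dspa (-0.43 ± 0.06) fell less. The calcium-binding gene icn2, of a fish S100 family, was at 26.1 CPM in SEC and 54.98 CPM in CTRL (-1.08 ± 0.09). Summed over the list, keratin transcripts held 9482 to 13177 CPM in SEC and 17669.9 to 19220.0 CPM in CTRL.

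Ionocyte and claudin genes rose more often than they fell in the same pools. Of 32 tested genes of ionocytes, the skin cells that take up salt and excrete acid and ammonia, 11 rose (34.4%) and 3 fell (9.38%). The sodium chloride cotransporter gene slc12a10.2 had 111, 97.5, 101, 93.4 and 92.6 CPM in SEC pools, against 50.6, 44.7, 48.7, 47.2 and 48.6 CPM in CTRL pools. By the fit the groups were 2.07-fold apart (1.05 ± 0.06, adjusted p = 2.44e-07). The sodium pump gene atp1a1a.3 was at 0.68 ± 0.06 and the chloride channel gene clcn2c at 0.65 ± 0.07. The count of 3 that fell was 1 without SEC replicate 2, 3, 4 or 5 or CTRL replicate 4, each left out alone. Of 29 claudins, which seal the space between cells, 9 rose (31.0%) and none fell, with cldn23a at 36.2 CPM in SEC and 17.9 CPM in CTRL (1.02 ± 0.10) and cldne at 0.56 ± 0.06.

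**Figure D3:**
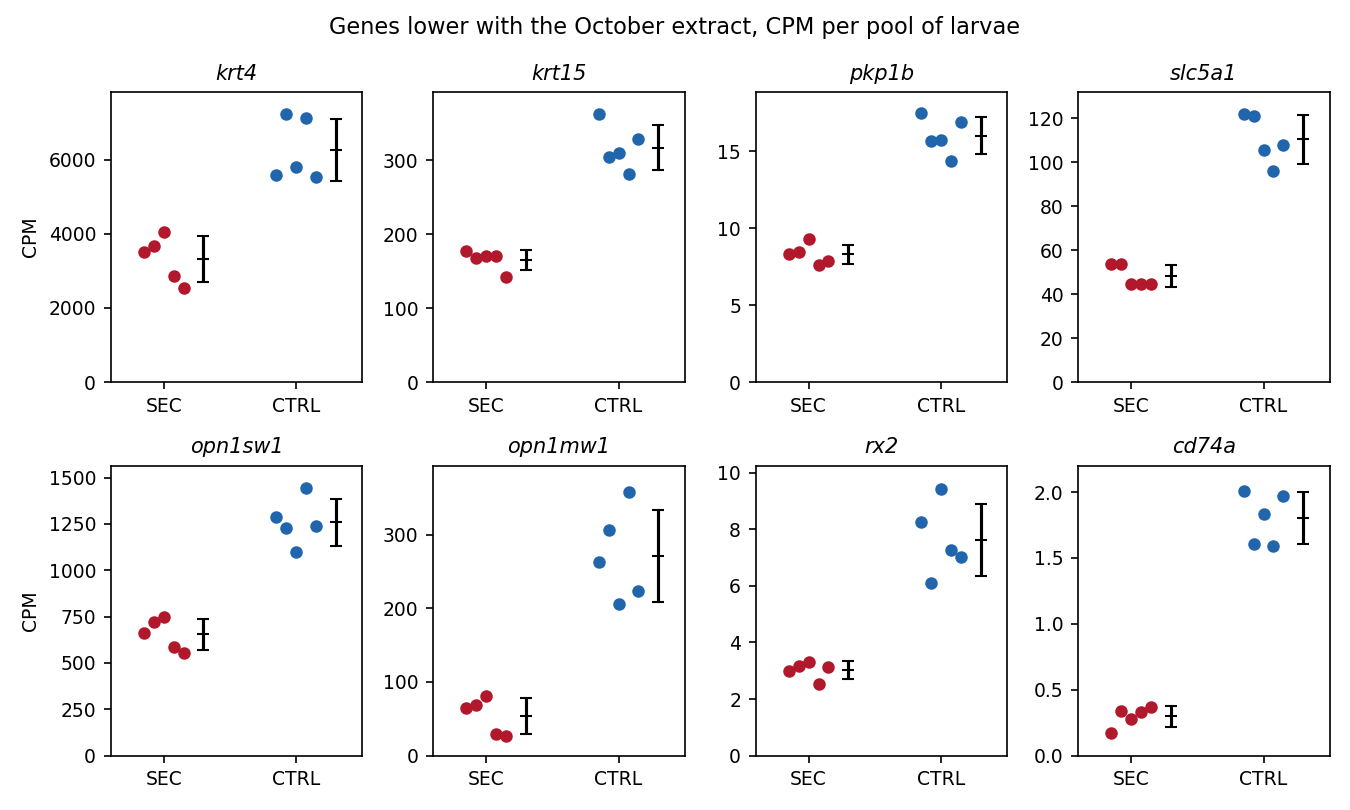
CPM (linear axis from 0) of 8 genes that fell with the October extract, with 1 point per pool, SEC left and CTRL right, and the mean with its SD (n = 5 each). In each panel all SEC pools lie below all CTRL pools; for opn1mw1 SEC replicates 4 and 5 are lowest, at 29.9 and 26.4 CPM.

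In the eye several cone opsins fell. Of 33 tested opsins 9 fell (27.3%) and 1 rose (3.03%), and of 57 other phototransduction genes 15 fell (26.3%) and 3 rose (5.26%), with medians of -0.19 and -0.12. The ultraviolet opsin gene opn1sw1 (ENSDARG00000045677) had 662, 721, 748, 585 and 552 CPM in SEC pools, against 1287, 1229, 1096, 1446 and 1239.6 CPM in CTRL pools. All SEC pools were lower (-0.95 ± 0.09, adjusted p = 3.29e-05). A green opsin gene, opn1mw1 (ENSDARG00000097008), had 64.4, 68.8, 81.6, 29.9 and 26.4 CPM in SEC pools, against 263, 306, 206, 358 and 223 CPM in CTRL pools. By the fit the groups were 5.01-fold apart (-2.32 ± 0.30, adjusted p = 0.000278), with a wide spread in both groups and a change of -3.04 within the low side. Green opsin genes lie in tandem copies, so its value is uncertain. The blue opsin opn1sw2 was at -0.85 ± 0.11 and the non-visual opn6b at -0.83 ± 0.11. Of the cascade behind the opsins, the cyclase activator guca1e (-1.87 ± 0.32), the kinase grk1b (-0.78 ± 0.09) and cone transducin gnat2 (-0.62 ± 0.10) fell. The cone arrestin gene arr3b, whose product ends the signal, rose (0.88 ± 0.15). It was at 1.07 within the low side (adjusted p = 0.086) and 0.66 within the high side (adjusted p = 0.14), without a call in either. Summed phototransduction transcripts overlapped, 4993 to 5429 CPM in SEC and 4696 to 5620.1 CPM in CTRL, while summed opsins did not, 2265 to 2893 CPM in SEC and 3604 to 4538 CPM in CTRL.

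Among retinal transcription factors 5 of 33 fell (15.2%) and none rose, a count between 2 and 6 with a library left out: 2 without SEC replicate 5 or CTRL replicate 3, and 3 without SEC replicate 2 or 3 or CTRL replicate 1. The homeobox gene rx2 (ENSDARG00000040321), of photoreceptors and Müller glia, had 3.01, 3.173, 3.33, 2.52 and 3.15 CPM in SEC pools, against 8.27, 6.09, 9.42, 7.26 and 7.01 CPM in CTRL pools. It fell to 3.03 CPM in SEC, against 7.61 CPM in CTRL (-1.32 ± 0.12, adjusted p = 2.28e-05). The gene impdh1b, for an enzyme of guanine nucleotide synthesis that photoreceptors use, fell slightly and evenly (36.7 ± 1.55 CPM in SEC and 49.6 ± 2.16 CPM in CTRL, -0.44 ± 0.05). In the lens 1 of 61 genes was called.

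In the gut, nutrient absorption genes fell more often than they rose. Of 45 tested enterocyte genes 14 fell (31.1%) and 7 rose (15.6%), with a median of -0.25, and 23 fell within the low side and 22 with the side as a term. The glucose transporter gene slc5a1 (ENSDARG00000013871) had 53.8, 53.8, 44.8, 44.6 and 44.5 CPM in SEC pools, against 122, 121, 105, 95.8 and 108 CPM in CTRL pools. No pool of one group reached the other (-1.19 ± 0.08, adjusted p = 1.93e-06). The phosphate transporter gene slc34a2a had 6.01, 4.34, 6.63, 3.06 and 3.69 CPM in SEC pools, against 22.97, 22.2, 17.3, 26.99 and 21.6 CPM in CTRL pools. By the fit it was 4.67-fold lower in SEC (-2.22 ± 0.19). The carbonic anhydrase gene ca4b was at -1.56 ± 0.17, lct, named for the lactase of mammals, at -1.49 ± 0.21, and the anion exchanger gene slc26a6 (ENSDARG00000055835, a symbol shared by 2 genes and so uncertain) at -1.35 ± 0.10. Among the risen, slc15a1b and anpepb, a peptide transporter and a brush-border peptidase gene named after their values were seen, were at 0.72 ± 0.09 and 0.92 ± 0.11. The paralogous peptide transporter slc15a1a, also named after its value was seen, was at -1.40 ± 0.24.

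Of 22 tested bile acid genes 7 rose (31.8%) and 2 fell (9.09%). The ileal uptake carrier slc10a2 rose to 19.03 CPM in SEC, against 11.5 CPM in CTRL (0.73 ± 0.10), beside abcb11a above. The repressor gene nr0b2a, which restrains bile acid synthesis in mammals, had 8.19, 6.53, 8.01, 4.71 and 5.42 CPM in SEC pools, against 11.6, 16.9, 14.99, 18.6 and 20.7 CPM in CTRL pools. All SEC pools were below all CTRL pools (-1.33 ± 0.18, adjusted p = 0.000347). Its paralog nr0b2b, named after its counts were seen, had too few for a test and pointed the other way. It had 16, 8, 11, 21 and 18 counts in SEC pools, against 2, 0, 2, 0 and 0 counts in CTRL pools. In the retinoid list rbp2b, an intestinal retinol carrier, rose (1.13 ± 0.21). Its paralog rbp2a fell, with log2 changes of -0.49 to -0.41 with single libraries left out (edgeR adjusted p up to 0.0031). The gene lrata, for the enzyme that stores retinol as esters, also fell (-1.52 ± 0.28). The call of lrata was lost within the low side (adjusted p = 0.051). Of 30 retinoid genes 2 rose (6.67%), or 7 within the high side. In this list 5 fell (16.7%), or 3 without SEC replicate 2, 4 or 5 or CTRL replicate 2 or 4. Of 43 liver plasma protein genes 3 rose (6.98%) and 4 fell (9.3%), with the risen share near the 7.19% of all tested genes. The fetuin genes ahsg2 (-0.96 ± 0.10) and ahsg1 (-1.13 ± 0.23) were among the lower. The call of ahsg1 was lost within the high side (-0.50, adjusted p = 0.1). The higher count was 1 without SEC replicate 2 or 4 and 7 without CTRL replicate 2, and the lower count was 8 within the low side and 1 within the high side. Apolipoprotein E paralogs went opposite ways: apoea fell (109.7 CPM in SEC and 221 CPM in CTRL, -1.01 ± 0.12) and apoeb rose (779 and 526 CPM, 0.56 ± 0.07).

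Immune genes moved both ways. Of 40 tested inflammation and leukocyte genes 8 fell (20.0%) and 5 rose (12.5%). The count that rose was 2 without SEC replicate 2 or CTRL replicate 2 and 3 without SEC replicate 3 or CTRL replicate 1, 3, 4 or 5, and 5 fell within the low side. The genes that fell include those of antigen presentation by class II molecules, at low levels. The invariant chain gene cd74a (ENSDARG00000009087) had 0.172, 0.339, 0.277, 0.330 and 0.372 CPM in SEC pools, against 2.00, 1.61, 1.83, 1.59 and 1.97 CPM in CTRL pools. It fell 5.97-fold by the fit (-2.58 ± 0.20, adjusted p = 4.97e-06). Its paralog cd74b was at -1.51 ± 0.18, and mhc2dab at -1.59 ± 0.21. The gene rag1, for the recombinase of developing lymphocytes in the thymus, fell to 5.03 ± 0.629 CPM in SEC, against 8.03 ± 0.981 CPM in CTRL (-0.67 ± 0.11). Among the risen, il1b, an inflammatory cytokine (0.99 ± 0.27), and the macrophage gene mpeg1.2 (1.45 ± 0.38) were named after their values were seen; mpeg1.2 read 19.3 CPM in SEC replicate 5 and 4.15, 6.62, 5.89 and 5.93 CPM in the other SEC pools, against 3.73, 2.22, 4.05, 2.69 and 2.80 CPM in CTRL pools. Interferon-response genes rose in 2 of 20 (10.0%, near the 7.19% of all tested genes), stat1b (1.16 ± 0.22) and irf7 (0.80 ± 0.18). None fell, but the median of this list was -0.15. The count that fell was 2 without SEC replicate 1, 2 with DESeq2 and 2 with the replicate number as a block. Summed leukocyte transcripts were at 227 to 302 CPM in SEC and 233 to 288 CPM in CTRL.

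Genes of fuel use rose in part. Of 41 tested genes of fatty acid oxidation and PPAR targets 18 rose (43.9%) and 2 fell (4.88%), or 5 fell within the high side, with a median of 0.32. The gene acadvl, for the dehydrogenase that starts oxidation of long-chain acids, had 396, 398, 380.2, 396 and 403 CPM in SEC pools, against 246, 239, 237, 227 and 230.4 CPM in CTRL pools. The pools of each group lay close together and apart from the other (0.74 ± 0.04, adjusted p = 1.45e-07). The uncoupling protein gene ucp2 was at 0.77 ± 0.09, and cd36, a fatty acid uptake gene, fell (-0.55 ± 0.07). Monocarboxylate transporters of the slc16 family rose in 8 of 16 members, with no member lower, with slc16a13 at 27.6 CPM in SEC and 11.7 CPM in CTRL (1.24 ± 0.06) and slc16a6b at 1.39 ± 0.15. The list of hypoxia factors and glycolysis had 22 of 59 higher (37.3%) and 4 lower (6.78%), the lower 2 without SEC replicate 2 or 5 or CTRL replicate 3 or 4. Within it epas1a, an oxygen-sensitive transcription factor gene, had 268.7, 246, 245, 234 and 254 CPM in SEC pools, against 167, 163, 162, 154 and 138 CPM in CTRL pools. It was at 0.67 ± 0.06, and hif1al at 0.83 ± 0.07.

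The malic enzyme gene me1, a source of reducing power for lipid synthesis, had 29.9, 20.7, 19.9, 21.3 and 20.7 CPM in SEC pools, against 8.103, 7.01, 9.55, 6.03 and 6.14 CPM in CTRL pools. SEC replicate 1 was the highest and the groups did not overlap (1.61 ± 0.15, adjusted p = 1.75e-05). The list of fatty acid synthesis and lipid transport had 5 of 35 higher and 1 lower, or 10 higher without CTRL replicate 2, 11 higher within the low side and 5 lower within the high side. Of 94 nuclear genes of oxidative phosphorylation 10 rose (10.6%) and 1 fell (1.06%), or 8 fell within the high side. The risen include succinate dehydrogenase subunits and assembly factors, sdhaf1 (0.72 ± 0.07), sdha (0.58 ± 0.06) and sdhb (0.42 ± 0.04). The sulfide oxidase gene sqor was in the 15 of smallest p among risen genes with at least 1 CPM and no clone name. It averaged 38.6 ± 2.24 CPM in SEC and 13.6 ± 0.999 CPM in CTRL (1.51 ± 0.06). In the same set of 15, ptgdsb.1, for a lipocalin-type prostaglandin D synthase, averaged 929 ± 74.2 CPM in SEC and 408 ± 5.42 CPM in CTRL (1.19 ± 0.05).

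Chaperone genes rose in part. Of 40 tested heat shock proteins and co-chaperones 14 rose (35.0%) and none fell, or 3 fell within the high side, with a median of 0.25. The cytosolic chaperone gene hsp90aa1.2 had 154, 159, 151, 150.1 and 104 CPM in SEC pools, against 53.9, 96.5, 50.8, 58.2 and 63.2 CPM in CTRL pools. SEC replicate 5 and CTRL replicate 2 came close to each other without overlapping (1.16 ± 0.17, adjusted p = 0.000755), and the call was lost within the high side (adjusted p = 0.1). The small heat shock gene hspb6 was at 1.29 ± 0.21 and the co-chaperone gene chordc1a at 0.76 ± 0.10. The strongly inducible hsp70l was at 0.59 ± 0.36 and was not called (adjusted p = 0.342), though it was at 1.28 within the high side (adjusted p = 0.035). In the unfolded protein and ATF4 list 6 of 41 rose (14.6%) and 1 fell, or 3 rose without SEC replicate 4, 17 rose within the low side and 4 fell within the high side. In the p53 list 3 of 24 rose (12.5%), or 9 within the high side: gadd45aa, a DNA damage gene, averaged 13.9 ± 1.27 CPM in SEC and 6.72 ± 1.21 CPM in CTRL (1.05 ± 0.12), while cdkn1a, the main p53 target that stops the cell cycle, was at 0.84 ± 0.28 and was not called (adjusted p = 0.074). Immediate early genes rose in 8 of 35 members (22.9%), or 4 without SEC replicate 2 and 5 without SEC replicate 4 or 5 or CTRL replicate 3 and 14 within the high side, led by the AP-1 gene fosl1a (1.48 ± 0.17) and atf3 (1.18 ± 0.21).

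Cell cycle, collagen and fasting genes gave counts that differed widely between the sides. Of 50 tested cell cycle and replication genes 17 fell and none rose, with a median of -0.51. Within the low side 3 fell and within the high side 46 did. The gene top2a, for a topoisomerase of dividing cells, had 46.1, 39.5, 42.1, 44.4 and 36.5 CPM in SEC pools, against 49.7, 85.4, 75.7, 79.7 and 44.9 CPM in CTRL pools. CTRL replicates 1 and 5, on the low side, were within or near the range of SEC, so the groups overlapped (-0.68 ± 0.16, adjusted p = 0.0168). CTRL replicate 3, also on the low side, read 75.7 CPM, near the controls of the high side. Summed over the list, CTRL replicate 3 held 1273 CPM. The other low-side controls held 825 and 908 CPM and the high-side controls 1454 and 1569 CPM. The call of top2a was lost without SEC replicate 2, SEC replicate 5 or CTRL replicate 3 and within the low side (adjusted p = 0.41). The mitotic cyclin gene ccnb3 (-0.80 ± 0.15) and the checkpoint gene bub1 (-0.70 ± 0.15) fell without overlap. The list's count ran from 3 without SEC replicate 2, SEC replicate 5 or CTRL replicate 3 to 25 without CTRL replicate 5, and was 6 or 7 without SEC replicate 3 or 4 or CTRL replicate 2 or 4.

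Of 55 collagens 7 fell (12.7%) and 1 rose (1.82%), with 5 lower within the low side and 36 within the high side. The count of lower collagens was 2 without SEC replicate 2, 3 or 5 or CTRL replicate 3, 3 without SEC replicate 4 or CTRL replicate 2 or 4, and 4 without SEC replicate 1. Summed collagens read 13176 CPM in CTRL replicate 3, between the other controls of the low side and those of the high side. The gene col16a1 was at -0.40 ± 0.07. Fasting and muscle atrophy genes had 2 of 24 higher in the whole comparison (8.33%, near the 7.19% of all tested genes). Within the low side 4 were higher and within the high side 17. Their count was 0 without SEC replicate 4 or 5 or CTRL replicate 2 or 4, 1 without SEC replicate 1 or 2 or CTRL replicate 3, and 3 without CTRL replicate 1 or 5. Within that list the starvation marker igfbp1b was at 0.41 ± 0.40 and was not called (adjusted p = 0.583), and at 1.55 within the high side (adjusted p = 0.0594). The exposure effect did not differ between sides past the adjusted threshold in any gene, 0 of 22512 by edgeR. At an unadjusted p under 0.05, 3033 of the 22512 genes differed, a share above 0.05. With 2 or 3 pools per group on each side, the absence of calls cannot show that the effects were alike. No other tool was run on this difference.

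**Figure D4:**
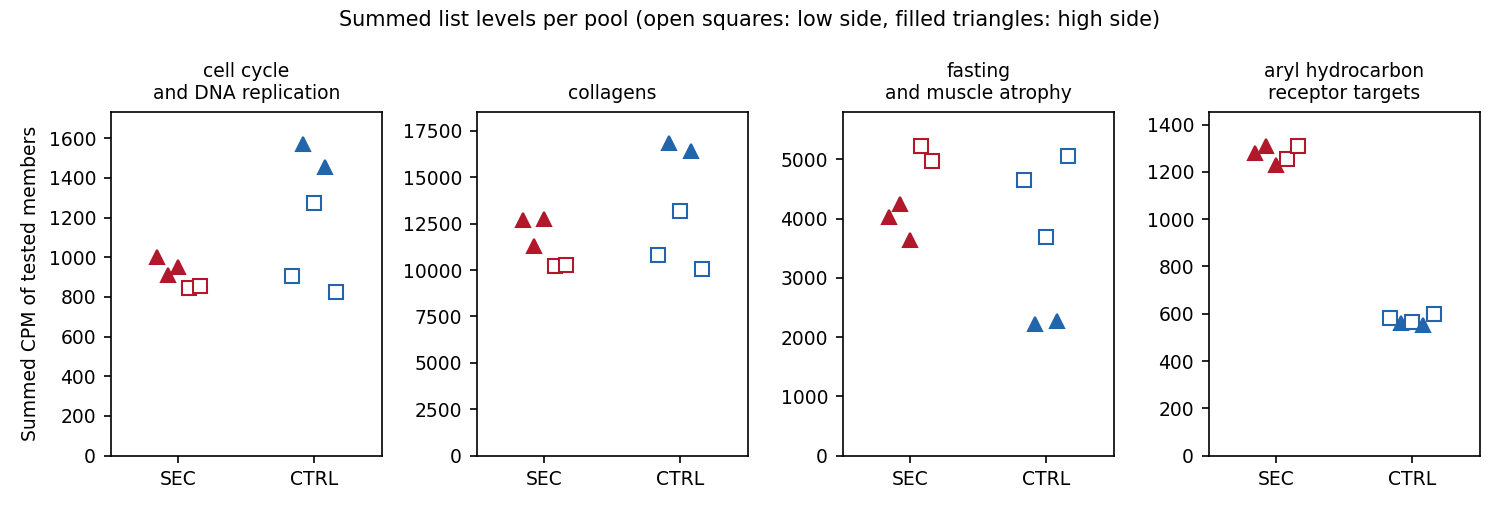
Summed CPM of 4 gene lists in each October pool, SEC left and CTRL right; open squares are pools of the low side and filled triangles pools of the high side. Aryl hydrocarbon receptor targets separate by exposure, 1231 to 1310 CPM in SEC against 553 to 599 CPM in CTRL, while cell cycle genes, 847 to 999 CPM in SEC and 825 to 1569 CPM in CTRL, overlap.

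Of 59 tested skeletal muscle sarcomere genes 11 fell (18.6%) and 1 rose (1.69%), with a median of -0.07, and their summed level overlapped, 104522 to 111198 CPM in SEC and 102724 to 115523 CPM in CTRL. Among those that fell were the fast-muscle genes mybpc2b (-0.70 ± 0.07), tnnt3a (-0.43 ± 0.07) and tnni2a.1 (-0.42 ± 0.06). The count that fell was 5 without SEC replicate 2 or CTRL replicate 3 and 6 without SEC replicate 4 or 5, 7 within the low side and 22 with the side as a term. Within the high side 16 fell and 9 rose. Of 83 cytosolic ribosomal proteins 1 rose and 1 fell (1.2% each), with a median of -0.08. In 10 of the 83 all SEC pools lay below all CTRL pools, as they did in 4.73% of all tested genes. The count of ribosomal proteins that fell depended on the setting: it was 6 with library totals alone, 10 with DESeq2 and 13 with all 20 libraries in the fit.

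**Figure D5:**
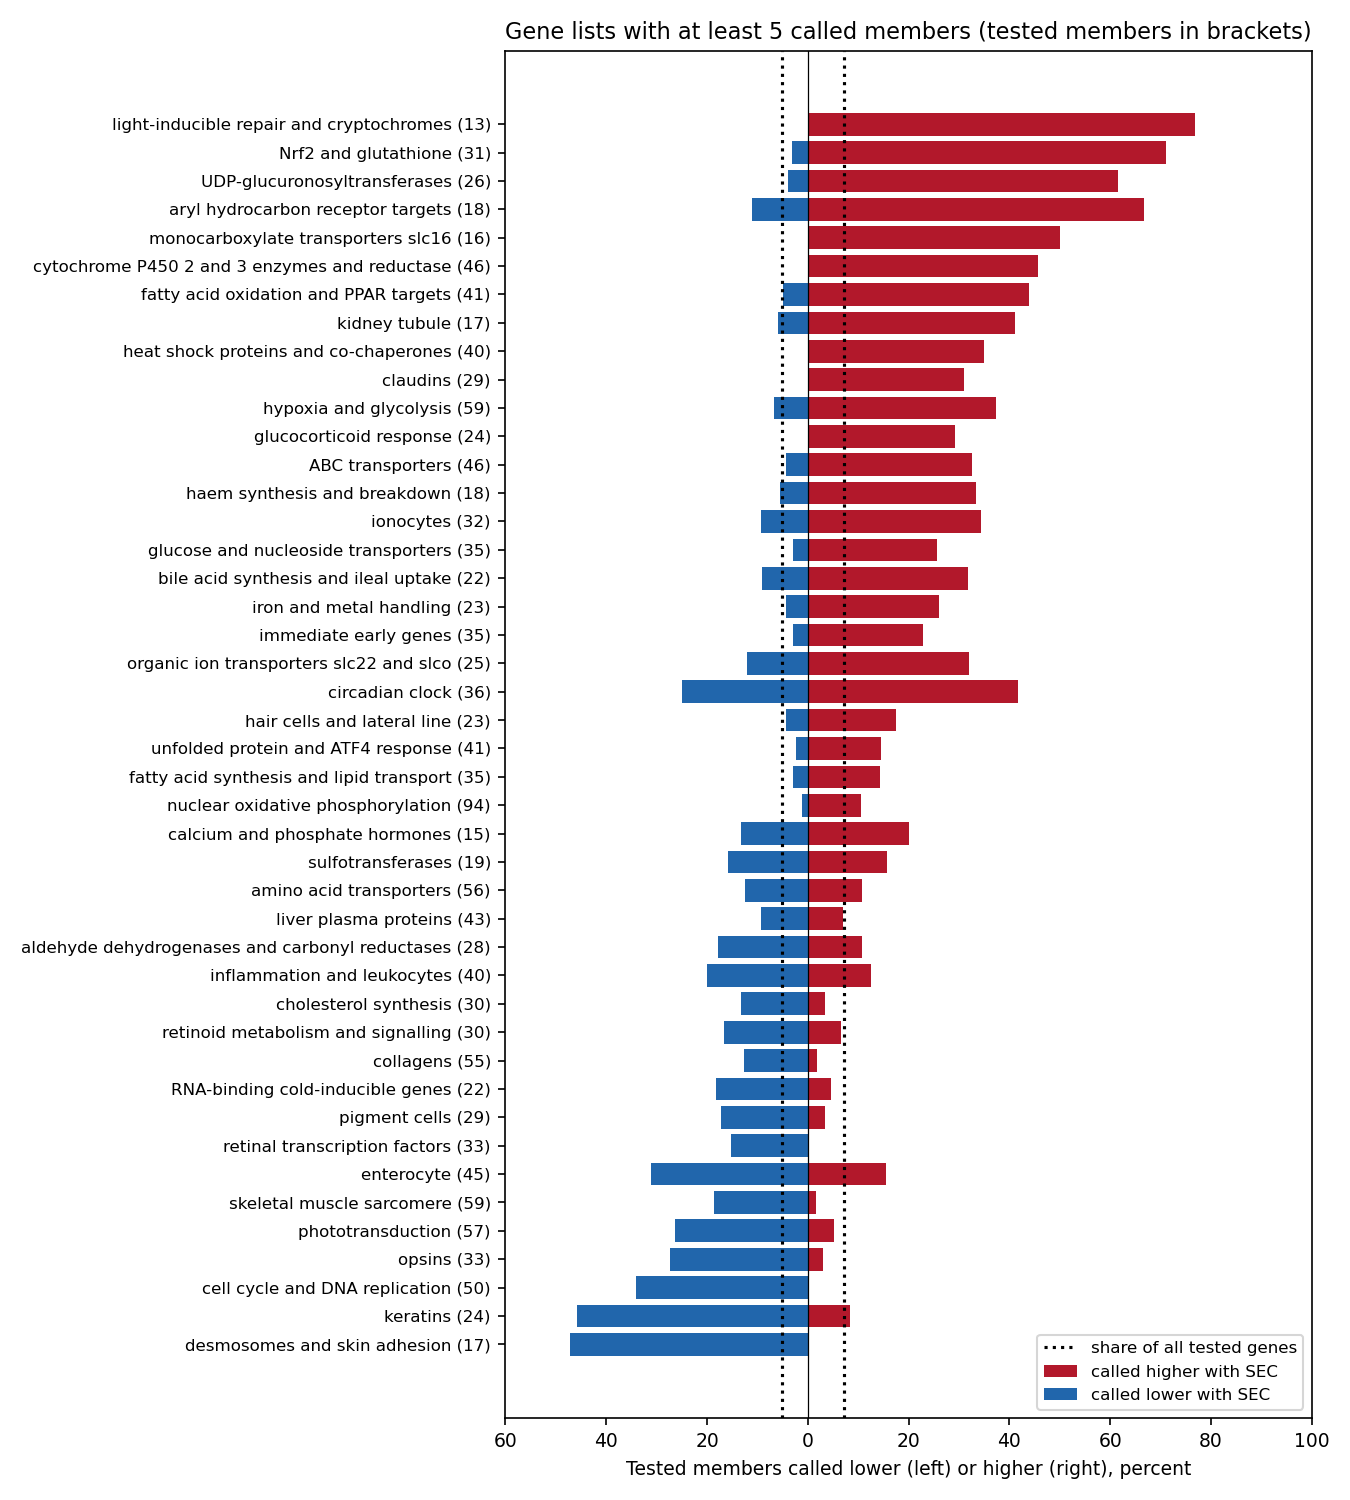
Share of tested members that fell (left) and rose (right) with the October extract, in percent, for the lists with at least 5 called members; dotted lines mark the 5.09% and 7.19% of all tested genes. Light-inducible genes (76.9%), Nrf2 and glutathione genes (71.0%) and aryl hydrocarbon receptor targets (66.7%) extend farthest to the right, and desmosome genes (47.1%) and keratins (45.8%) farthest to the left.

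The October response was set against the response to the June extract (JUN20) in a fit of all 20 libraries, which asks gene by gene if the effect of SEC over CTRL differed between campaigns. In 240 of 23121 genes it did (1.04%), with the October effect more positive in 183 (0.791%) and more negative in 57 (0.247%). Of 36 tested clock genes 12 were more positive and none more negative. For per1a the pools held 27.2 to 37.6 CPM in SEC and 9.42 to 13.4 CPM in CTRL in October, and 25.2 to 34.1 CPM in SEC and 32.99 to 43.9 CPM in CTRL in June. The October controls stood apart from the other 3 groups, and the effects differed by 1.84 ± 0.15 on the log2 scale (adjusted p = 2.69e-06). The gene ciarta showed the same layout, 57.02 to 68.7 and 28.4 to 35.00 CPM in October SEC and CTRL against 52.05 to 68.8 and 56.5 to 68.7 CPM in June, a difference of 1.03 ± 0.10. The difference for nr1d2b was 0.52 ± 0.06.

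Xenobiotic genes also differed. For ahrra the October SEC pools held 9.02 to 12.1 CPM and the October CTRL pools 0.404 to 0.862 CPM, and the June pools 10.02 to 11.8 CPM in SEC and 1.98 to 3.11 CPM in CTRL. SEC levels of both campaigns overlapped while the control levels did not, and the effects differed by 2.15 ± 0.20 (adjusted p = 7.06e-06). For cyp1a the difference was 0.86 ± 0.09, with means of 487 CPM in SEC and 31.6 CPM in CTRL in October and 455 and 53.7 CPM in June. In other genes the exposed pools differed and the controls hardly did: cyp2k18 averaged 438 CPM in SEC and 7.08 CPM in CTRL in October, and 94.5 and 6.98 CPM in June (2.19 ± 0.32), and abcc12 averaged 188 and 24.8 CPM in October and 73.6 and 24.8 CPM in June (1.35 ± 0.16). These 2 genes were chosen for this contrast after their values were seen. In lists, 4 of 18 aryl hydrocarbon receptor targets, 4 of 46 family 2 and 3 cytochromes, 3 of 31 Nrf2 genes and 5 of 13 light-inducible genes were more positive in October, and none more negative.

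More negative in October were rx2 (2.54 to 3.37 CPM in SEC and 6.15 to 9.56 CPM in CTRL in October, 4.02 to 5.70 and 5.94 to 6.45 CPM in June; difference -0.94 ± 0.16), impdh1b (-0.35 ± 0.05), the basement membrane gene nid1a (-0.39 ± 0.06), baiap2l1a (-0.61 ± 0.10) and the annexin gene anxa1c (-1.29 ± 0.22). For anxa1c the October pools held 8.38 to 12.3 CPM in SEC and 20.02 to 23.9 CPM in CTRL, and the June pools 18.7 to 34.97 CPM in SEC and 19.1 to 25.98 CPM in CTRL. Its fall was thus seen in October, with a spread of June SEC pools that reached across both sides of the June controls. The campaigns differ in extract and larvae and may differ in date of exposure, which cannot be told apart here. The count of 240 was 607 with DESeq2. It was 134 without June CTRL replicate 3, 147 without June SEC replicate 3, 154 without October CTRL replicate 3 and 158 without June SEC replicate 2.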

How the data were processed

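Expression was measured by stranded mRNA sequencing of pooled whole larvae, with reads on a NovaSeq and unique molecular identifiers, per the labels' protocols. The authors deposited raw read counts per gene, 1 column per library; the 20 single-library tables hold the same counts, and no 2 libraries are identical. CASAVA, STAR 2.7.8a, the GRCz11 genome, SAMtools and DESeq2 (listed as version 3.17) are named in the submitters' processing notes; the counting tool, annotation release, use of strand in counting and collapse of identifiers are not given there or in the labels. Overlapping and antisense genes, and genes that share a symbol, are therefore uncertain.

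The 10 October libraries were fitted alone: 22512 of 32520 genes passed edgeR's filterByExpr (minimum count 10), libraries were scaled by TMM, and SEC was tested against CTRL by edgeR's robust quasi-likelihood F test with Benjamini-Hochberg adjustment at 0.05 (edgeR 4.0.16, limma 3.58.1, R 4.3.3). The standard error is the size of the log2 change divided by the square root of F. Library measures were compared by exact two-sided permutation tests (SciPy 1.17.1, Python 3.11.15), and figures drawn with matplotlib 3.10.9. The effects of both campaigns were compared as an interaction term over 20 libraries. Tested on simulated counts of these 10 libraries and 22512 genes, the October fit recovered 72 of 100 genes changed 1.5-fold and 94 of 100 changed 2-fold, with 11 false among 177 calls. The changed genes were drawn from those with higher counts, and far fewer were changed than were called in the data. The simulation held no division into sides. Recovery and false calls in the data, above all for genes of low counts, can therefore differ.

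The genes and the 72 lists were chosen with earlier results of these data known, and the entry pattern for small ribosomal subunit proteins was narrowed after values were seen, to drop S6 kinases. Named by rule were 20 indicator genes, the 15 called genes of smallest p and the 10 of largest change in each direction with a mean of at least 1 CPM and a symbol other than a clone name, up to 4 called members per list of smallest p, and 5 genes per direction for the difference between campaigns; genes named outside it are said to be so, and 1 gene it chose is not reported here. Alternatives were RLE factors, library totals alone, DESeq2 1.42.0, no filter, a stricter filter, each library left out, the replicate number as a block, all 20 libraries in the fit, and the side of the pools as a term or as subsets. The interaction of side with exposure was added after seeing the data. Deviations of same-numbered pools had no common sign (correlations -0.282, 0.156, -0.0635, -0.384 and 0.249). SEC replicates 2 and 5 correlated best with the CTRL pool of their own number, which lay on the same side. These 5 values cannot decide whether the numbers pair the pools. Sequences and coordinates were not used here.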

Additional observations from a re-analysis of the deposited data

Results flagged for a closer look

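Among 494 groups of 5 pools screened, 25 had 1 pool far from the others by Dixon's criterion; chance flags about 1 in 20 groups. In xenobiotic and redox genes, ahrra was at 8.89 CPM in SEC replicate 3 and 11.4 to 11.9 CPM in the other SEC pools, and cyp1c2 at 13.6 CPM in SEC replicate 4. Further, cbr1l was at 24.4 CPM in CTRL replicate 1, and the ferritin gene fth1b at 23.3 CPM in SEC replicate 3 and 25.3 CPM in CTRL replicate 4.

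SEC replicate 5 stood apart in krt15 (143 CPM), hsp90aa1.2 (104 CPM), hif1al (436 CPM), the monocarboxylate transporter gene slc16a6b (56.3 CPM, against 29.9 to 37.4 CPM in the other SEC pools), the amino acid transporter gene slc1a4 (51.4 CPM) and the class II gene mhc2dab (0.262 CPM). SEC replicate 4 stood apart in prl (5.42 CPM, against 2.52 to 3.26 CPM in the other SEC pools), xpc (66.2 CPM), mybpc2b (92.8 CPM) and the replication gene rfc2 (6.44 CPM). SEC replicate 1 stood apart in dspb (41.9 CPM), impdh1b (39.4 CPM) and me1 (29.9 CPM). Of the controls, replicate 5 stood apart in cldn23a (15.6 CPM), cldne (64.7 CPM) and the myosin light chain gene myl1 (846 CPM), replicate 2 in tefa (139 CPM), hsp90aa1.2 (96.5 CPM) and the complement gene c9 (99.4 CPM), and replicate 4 in apoeb (456 CPM).

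The effect of SEC over CTRL differed between October and June in 240 genes by the interaction term in edgeR. The 10 given here are those the rule named for it, the 5 of smallest p in each direction. Other genes named above also passed the threshold, among them cyp1c1, abcc12, cry5, tefa and porb. On the log2 scale the October effect minus the June effect was 1.84 for per1a, 2.15 for ahrra, 0.86 for cyp1a, 1.03 for ciarta and 0.52 for nr1d2b, and -0.35 for impdh1b, -0.94 for rx2, -0.39 for nid1a, -0.61 for baiap2l1a and -1.29 for anxa1c.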

How the results depend on the processing

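Every called gene named by the rule kept its direction under each alternative that tested it. Of 241 such genes 180 were called in every setting that tested them and 32 lost the call without at least 1 library. The stricter filter tested 242 of the 246 named genes. The total of 2763 was 2768 with RLE factors, 2801 with library totals alone, 3471 with DESeq2 and 2488 with no filter. With the replicate number as a block, though a pairing could not be decided, 1683 genes were called, 1076 higher and 607 lower. With all 20 libraries in the fit it was 4167, of which 1961 fell, and with the side as a term 4617, with 2456 higher and 2161 lower. Within the low side 744 genes fell, and within the high side 4455 were called and 2157 fell. The sides were set from these same libraries, so the counts of these side fits are descriptive only. Leaving out 1 library gave 1968 to 2935 called, 1232 to 1638 higher and 729 to 1297 lower, with the lowest total without SEC replicate 2 and the highest without CTRL replicate 5. The 240 differences between campaigns were 607 with DESeq2, 116 with the block and 134 to 330 without 1 library. The mitochondrial ribosomal share differed by 0.275 to 0.527 percentage points without 1 library (exact permutation p = 0.0476 without CTRL replicate 3). The cause of these shifts was not tested. Genes under about 1 CPM rest on few counts: no change in vtg1 could be detected at this depth.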

Other observations

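Gene lists that no paragraph above describes also held changed genes. Hair cell and lateral line genes rose in 4 of 23 tested members (17.4%) and fell in 1 (4.35%), or rose in 2 within the low side, among them the calcium-binding parvalbumin genes pvalb8 (109.6 ± 5.75 CPM in SEC and 59.7 ± 2.82 CPM in CTRL, 0.88 ± 0.05) and pvalb9 (0.62 ± 0.10) and the glutamate loading gene slc17a8 (0.55 ± 0.12). The call of slc17a8 was lost within the low side (adjusted p = 0.21). Endothelial genes rose in 4 of 24 (16.7%) and fell in none, or rose in 2 within the low side, with vwf of the clotting system at 10.5 ± 1.03 CPM in SEC and 6.90 ± 0.678 CPM in CTRL (0.60 ± 0.09) and the growth factor receptor gene flt1 at 0.43 ± 0.07. Of 28 glia and myelin genes 2 rose (7.14%, near the 7.19% of all tested genes) and 1 fell (3.57%), with a median of -0.01. Within the high side 5 rose and 6 fell. The gene that fell was rlbp1a, a retinoid carrier of retinal glia (-0.41 ± 0.11), a call lost without SEC replicate 2, 4 or 5 or CTRL replicate 2 or 4 (adjusted p up to 0.0829). Those that rose were the glutamine synthetase genes glula, to 490.0 CPM in SEC, against 346 CPM in CTRL (0.50 ± 0.07), and glulb, by 0.39 ± 0.08. In the exocrine pancreas 3 of 31 genes rose (9.68%, against 7.19% of all tested genes). They were the trypsin-like genes prss60.1 (1.75 ± 0.24), prss60.2 (1.96 ± 0.21) and prss60.3 (2.18 ± 0.27), near copies of each other and so uncertain. Pigment cell genes fell in 5 of 29 (17.2%) and rose in 1, with the melanin genes oca2 (-0.59 ± 0.12) and tyrp1a (-0.49 ± 0.12) lower and both calls lost within the low side (adjusted p = 0.13 and 0.14). The count was 3 without SEC replicate 2 or 5 or CTRL replicate 3 and 8 without CTRL replicate 5. The membrane genes ms4a17a.16 (1.89 CPM in SEC and 5.12 CPM in CTRL, -1.44 ± 0.12) and ms4a17a.17 (-0.76 ± 0.17) fell.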
